A study of Sus scrofa with 24 samples.

Results

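miR-221 and miR-222 were followed through the differentiation of porcine adipocytes from 2 sources. The members were the entries of the deposited miRNA table named ssc-miR-221 or ssc-miR-222, with or without an arm suffix, and they numbered 3 of 1587: ssc-miR-221-5p, ssc-miR-221-3p and ssc-miR-222. Small RNA was sequenced from primary cultures of 6-day-old Yorkshire piglets, in which preadipocytes came either from subcutaneous fat of the back (BF) or from the longissimus dorsi muscle (IMF, intramuscular). Cells were collected before induction (day 0) and on day 2, day 4 and day 8. Between day 0 and day 2 they received IBMX, dexamethasone and insulin, the next change of medium kept insulin only, and the last returned the cells to growth medium. The groups are BF-0d, BF-2d, BF-4d, BF-8d, IMF-0d, IMF-2d, IMF-4d and IMF-8d, with 3 libraries each and 24 in all. Nothing in the labels ties a library to one piglet, so p-values measure only the spread between these libraries, which may be technical.

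miR-221 and miR-222 are neighbours on the X chromosome of mammals and are commonly made from one primary transcript. Drosha and Dicer cut each hairpin, and one strand, or either, is loaded into Argonaute. Bases 2 to 8 of the loaded strand, the seed, choose the mRNAs that are repressed. The strand from the 3′ side of both hairpins carries the same seed and is best known for repressing the cell cycle inhibitor p27 (CDKN1B) and the receptor KIT. The pair is also abundant in vascular cells and has been studied in adipocyte differentiation and obesity.

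The mature sequences are shown because 2 of the 3 members share a seed and the other does not. They are written 5′ to 3′ with the seed in capitals, as the study's miRNA table gives them with T for U.
ssc-miR-221-5p: aCCTGGCAtacaatgtagatttctgt
ssc-miR-221-3p: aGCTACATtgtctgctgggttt
ssc-miR-222: aGCTACATctggctactgggtctc
ssc-miR-221-3p and ssc-miR-222 were identical over their first 8 bases, and 11 of 22 positions matched when both were aligned from the 5′ end without gaps. Each mature sequence had 1 exact copy in Sscrofa11.1, on the minus strand of chromosome X: ssc-miR-221-5p at chrX:40571109-40571134, ssc-miR-221-3p at chrX:40571073-40571094 and ssc-miR-222 at chrX:40571814-40571837. The study's miRNA table gives the plus strand for both hairpins, and the strand of the genome match, which is also that of the RefSeq annotation, is used here. Of 958 entries with a sequence at hand, 3 had the shared seed, and 1 had the seed of ssc-miR-221-5p, which is ssc-miR-221-5p itself. The other entry with the shared seed, novel_miR_570, was ssc-miR-221-3p with 1 further base, and 2 reads in a single library were all that it held.

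Both hairpins are printed 5′ to 3′ on the minus strand, with the sequenced arms in capitals, because the arms of miR-221 moved unequally.
MIR221: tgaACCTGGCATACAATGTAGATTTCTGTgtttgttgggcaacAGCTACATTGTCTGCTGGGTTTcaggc
MIR222: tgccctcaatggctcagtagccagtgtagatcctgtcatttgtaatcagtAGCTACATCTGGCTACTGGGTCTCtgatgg
MIR221 (chrX:40571068-40571137, 70 nt) and MIR222 (chrX:40571808-40571887, 80 nt) were 670 bases apart. ssc-miR-222 starts at base 51 of its hairpin, on the 3′ side, as ssc-miR-221-3p does at base 44. No entry of the table carries the name of the other arm of miR-222, so arms were compared for miR-221 alone. The cluster was intergenic in the RefSeq annotation. Within 100000 bases it had a long non-coding RNA on the same strand, LOC102166369, 21131 bases away, and the miRNA gene MIR9859, 86671 bases away. The nearest protein-coding genes were CXHXorf36, at 348056 bases, and LOC110257782, at 518191 bases.

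Levels are given in TPM as the authors named it, the reads of an entry per 1000000 reads counted on miRNAs in that library. They are therefore shares, and an amount of miRNA per cell cannot be read from them. Libraries held from 4954845 to 16863560 miRNA reads, so that 3 reads, taken as the floor, were worth from 0.178 to 0.605 TPM. The members lay far above it, with from 2016 to 15101 reads per library for ssc-miR-221-5p, 3910 to 24460 for ssc-miR-221-3p and 3159 to 28717 for ssc-miR-222. ssc-miR-21-5p, the most abundant entry, took from 49.0% to 60.5% of the reads on days 0, 2 and 4, from 27.9% to 40.3% in BF-8d and from 39.4% to 45.0% in IMF-8d. By mean TPM over the 24 libraries, ssc-miR-221-3p ranked 36 (985 TPM), ssc-miR-222 ranked 45 (791 TPM) and ssc-miR-221-5p ranked 53 (580 TPM) of all entries. The mRNA libraries were not analysed here, so the cell type could be checked on miRNAs only. Of 7 blood cell miRNAs listed, all lay at or under 6.63 TPM in every library. Among the entries listed for skeletal muscle, ssc-miR-206 was at 0 in 13 libraries and ssc-miR-1 was well detected in both sources, between 450 and 2324 TPM in BF and between 672 and 1707 TPM in IMF. ssc-miR-133a-3p (7.53 to 30.2 TPM in BF, 9.77 to 28.3 TPM in IMF) and ssc-miR-499-5p (8.57 to 23.2 TPM, 10.5 to 16.5 TPM) were found in every library. ssc-miR-133a-5p, ssc-miR-133b and ssc-miR-499-3p lay at or under 1.41 TPM.

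All 3 members were higher in subcutaneous cultures on days 4 and 8 than in any other group. How many other entries have this order was not counted. ssc-miR-221-5p, usually taken as the passenger strand of the hairpin, was at 252, 233 and 203 TPM in BF-0d and at 250, 292 and 318 TPM in BF-2d. It reached 561, 1302 and 931 TPM in BF-4d and 825, 2435 and 2332 TPM in BF-8d. The libraries of days 4 and 8 were all above those of days 0 and 2, and replicate 1 was the lowest on both later days. The intramuscular libraries were at 314, 324 and 270 TPM in IMF-0d, 228, 277 and 275 TPM in IMF-2d, 299, 423 and 272 TPM in IMF-4d and 479, 438 and 384 TPM in IMF-8d. No IMF library came as high as the lowest library of BF-4d.

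ssc-miR-221-3p, the arm with the seed that miR-222 shares, was at 1140.03, 719 and 828 TPM in BF-0d and at 689, 727 and 508 TPM in BF-2d. It was at 1326, 1325 and 2195 TPM in BF-4d and at 1195, 2382 and 3289 TPM in BF-8d. The later days lay above the earlier ones, and BF-0d replicate 1 lay just under BF-8d replicate 1. Among intramuscular libraries the values were 732, 428 and 669.5 TPM in IMF-0d, 468, 519 and 544 TPM in IMF-2d, 568, 469 and 593 TPM in IMF-4d and 1029.5, 697 and 597 TPM in IMF-8d. IMF-8d replicate 1 was the highest IMF library and still lay under all of BF-4d and BF-8d.

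ssc-miR-222 was at 542, 400.1 and 469.8 TPM in BF-0d and at 547, 493 and 361 TPM in BF-2d. It was at 1059.8, 2056 and 2577 TPM in BF-4d and at 989.6, 1460.1 and 2357 TPM in BF-8d. Unlike both arms of miR-221, its highest group mean was on day 4, although BF-4d and BF-8d overlapped widely. Among intramuscular libraries it was at 638, 372 and 497 TPM in IMF-0d, 335, 396 and 335 TPM in IMF-2d, 368, 467 and 380.3 TPM in IMF-4d and 873, 541 and 459 TPM in IMF-8d. IMF-8d replicate 1 again stood highest among the IMF libraries.

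**Figure D1:**
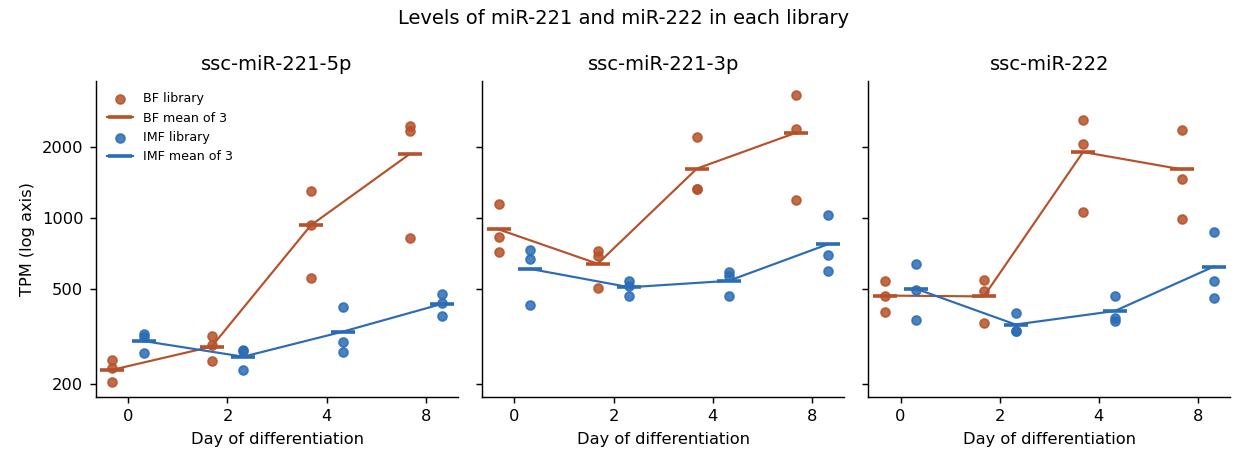
TPM of each member (log axis) against day of differentiation in the 12 BF and 12 IMF libraries, with points for libraries and bars joined by lines for the means of 3. The BF libraries of days 4 and 8 lie above all others in each panel, from 561 TPM upwards for ssc-miR-221-5p, 1195 TPM for ssc-miR-221-3p and 989.6 TPM for ssc-miR-222. How many other entries do so was not counted.

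Ordered by mean, the levels of each member ended with BF-4d and BF-8d, which overlapped each other and did not overlap the group below. For ssc-miR-221-5p the order from the lowest was BF-0d, IMF-2d, BF-2d, IMF-0d, IMF-4d, IMF-8d, BF-4d and BF-8d. For ssc-miR-221-3p it was IMF-2d, IMF-4d, IMF-0d, BF-2d, IMF-8d, BF-0d, BF-4d and BF-8d. For ssc-miR-222 it was IMF-2d, IMF-4d, BF-2d, BF-0d, IMF-0d, IMF-8d, BF-8d and BF-4d. Among the 6 lower groups, each overlapped the next in the order, for each member. Together the 3 members took 0.160% ± 0.0302 (SD, n = 3) of miRNA reads in BF-0d, 0.139% ± 0.0180 in BF-2d, 0.444% ± 0.139 in BF-4d and 0.575% ± 0.252 in BF-8d. In IMF the share was 0.141% ± 0.0281 in IMF-0d, 0.113% ± 0.00846 in IMF-2d, 0.128% ± 0.00686 in IMF-4d and 0.183% ± 0.0490 in IMF-8d. The spread between libraries was wider where the level was high. Its coefficient of variation was between 31.1% and 48.3% for the members in BF-4d and BF-8d, and between 7.60% and 35.2% in the other groups.

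When did the levels change during subcutaneous differentiation? Each pair of groups was compared with limma on log2(TPM + 1) over the 430 entries whose mean reached 1 TPM, and an entry was called at a Benjamini-Hochberg adjusted p under 0.05 and a fold change above 1.5. From BF-0d to BF-2d none of the 3 members was called, where 4.19% of all tested entries were. Their log2 fold changes were 0.32 ± 0.15 (SE) for ssc-miR-221-5p, -0.47 ± 0.22 for ssc-miR-221-3p and -0.02 ± 0.20 for ssc-miR-222, with limma adjusted p-values from 0.248 to 0.974. The smallest of these changed sign with scaling: ssc-miR-222 was at 0.02 with median-of-ratios scaling.

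From BF-2d to BF-4d all 3 members rose, where 6.05% of all tested entries were called and 5.81% were called as higher. The log2 fold change was 1.62 ± 0.29 (SE) for ssc-miR-221-5p, 1.31 ± 0.25 for ssc-miR-221-3p and 1.95 ± 0.32 for ssc-miR-222, with limma adjusted p-values of 0.0104, 0.0137 and 0.00685. ssc-miR-222 had the place 11, ssc-miR-221-5p the place 19 and ssc-miR-221-3p the place 21 among 430 rises, and the 3 libraries of one day did not overlap those of the other for any of them, which held for 34.9% of all tested entries. With median-of-ratios scaling, which moved the median of all tested entries by -0.12, the members were at 1.48, 1.16 and 1.81 and still called (limma adjusted p-values of 0.0307, 0.0307 and 0.0143), and 23 of 38 called entries were higher in BF-4d, against 25 of 26 on TPM. The calls were lost without either of 2 libraries. Without BF-4d replicate 2 or BF-4d replicate 3, 0 of the 3 members were called, at limma adjusted p-values of 0.0532 and 0.0644, while their log2 fold changes stayed between 1.06 and 1.84. In these fits 3 and 2 of all 430 entries were called, against 26 with every library. Without BF-2d replicate 3, ssc-miR-221-3p alone lost its call (limma adjusted p = 0.0612). With no filter on low entries 0 of the 3 were called (limma adjusted p = 0.265), as were 0 of all 1587 entries. In bulk cultures, a change in the number of cells of one type and a change in the RNA of each cell cannot be told apart.

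From BF-4d to BF-8d none of the 3 members was called, where 3.02% of all tested entries were. The log2 fold changes were 0.93 ± 0.43 (SE) for ssc-miR-221-5p, 0.43 ± 0.36 for ssc-miR-221-3p and -0.24 ± 0.38 for ssc-miR-222, with limma adjusted p-values from 0.225 to 0.776. ssc-miR-221-5p was called in one fit of all 24 libraries (limma adjusted p = 0.0292), in which 81 of all 430 entries were called, against 13 of 430 with the 6 libraries alone. It was also called without BF-8d replicate 1, where its log2 fold change was 1.44 (limma adjusted p = 0.0410) and 17 of 430 entries were called.

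Over the whole course from BF-0d to BF-8d all 3 members rose, in a comparison where 42.8% of all tested entries were called and 27.9% as higher. ssc-miR-221-5p changed most, by 2.87 ± 0.31 (SE) on the log2 scale, a ratio of means of 8.14 (limma adjusted p = 1.2e-06). ssc-miR-222 changed by 1.69 ± 0.26, a ratio of 3.40 (limma adjusted p = 5.97e-05), and ssc-miR-221-3p by 1.26 ± 0.29, a ratio of 2.56 (limma adjusted p = 0.00221). Among the 430 rises they had places 20, 36 and 50, and none of the members overlapped between BF-0d and BF-8d, as for 53.7% of all tested entries. TPM values are shares of one total, and ssc-miR-21-5p took less of it in BF-8d. With median-of-ratios scaling, which moved the median change of all tested entries by -0.11, the log2 fold changes were 2.73, 1.54 and 1.12 in the same order of members, and the limma adjusted p-values 4.21e-07, 4.81e-05 and 0.00223. With no filter on low entries ssc-miR-221-3p lost its call (limma adjusted p = 0.161).

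In the intramuscular cultures none of the members was called at any step. From IMF-0d to IMF-2d, where 0% of all tested entries were called, their log2 fold changes lay between -0.47 and -0.22, and from IMF-2d to IMF-4d, also with 0%, between 0.09 and 0.33. From IMF-4d to IMF-8d, where 13% were called, they lay between 0.41 and 0.57, with limma adjusted p-values from 0.154 to 0.176. From IMF-0d to IMF-8d, where 30.5% were called, ssc-miR-221-5p had a log2 fold change of 0.52 ± 0.13 (SE) with a limma adjusted p of 0.0222, and its fold of 1.43 was under the limit of 1.5. Without IMF-8d replicate 3 it was called, at 0.60 (limma adjusted p = 0.0278), as were 121 of 430 entries, against 131 with every library. ssc-miR-221-3p was at 0.34 ± 0.27 and ssc-miR-222 at 0.29 ± 0.29, with limma adjusted p-values of 0.366 and 0.454.

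Did the sources differ on the same day? A log2 fold change is here IMF minus BF. Before induction, where 29.3% of all tested entries were called, none of the members was: ssc-miR-221-5p was at 0.40 ± 0.12 (SE, limma adjusted p = 0.0502), ssc-miR-221-3p at -0.56 ± 0.27 (0.174) and ssc-miR-222 at 0.07 ± 0.23 (0.842). The libraries of ssc-miR-221-5p did not overlap, with all of IMF-0d above all of BF-0d, as for 47.7% of all tested entries. edgeR and DESeq2 on whole reads called it, at 0.65 (adjusted p = 0.00966) and 0.61 (adjusted p = 0.00291), and with median-of-ratios scaling limma gave 0.58 (adjusted p = 0.0162), a fold under the limit of 1.5. Of all 430 entries these settings called 113, 110 and 102, against 126 by limma on TPM. On day 2, where 12.3% of entries were called, none of the members was, and their log2 fold changes lay between -0.38 and -0.14. ssc-miR-221-5p was at 0.02 on that day with edgeR.

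On day 4 all 3 members were lower in the intramuscular cultures, where 36.3% of all tested entries were called and 28.8% as lower. ssc-miR-222 differed most, by -2.14 ± 0.30 (SE) on the log2 scale, a 4.68-fold ratio of means (limma adjusted p = 2.80e-04). ssc-miR-221-3p was at -1.54 ± 0.25, a ratio of 2.97 (limma adjusted p = 5.37e-04), and ssc-miR-221-5p at -1.43 ± 0.30, a ratio of 2.81 (limma adjusted p = 0.00278). Among the 430 falls they had places 11, 34 and 42. On this day the median of all tested entries was itself at -0.34, and median-of-ratios scaling moved it by 0.34. The members were then at -1.71, -1.10 and -1.0, all still called (limma adjusted p-values of 0.00256, 0.00598 and 0.0346). With the same scaling, 51 of 120 called entries were higher in IMF-4d, against 32 of 156 on TPM.

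On day 8 all 3 members were again lower in the intramuscular cultures, where 37.2% of all tested entries were called and 25.1% as lower. Here ssc-miR-221-5p differed most, at -1.95 ± 0.32 (SE), a 4.30-fold ratio of means (limma adjusted p = 2.86e-04). ssc-miR-221-3p was at -1.48 ± 0.31, a ratio of 2.95 (limma adjusted p = 0.00161), and ssc-miR-222 at -1.32 ± 0.29, a ratio of 2.57 (limma adjusted p = 0.00239). The members did not overlap between the sources on either day, as for 50.2% of all tested entries on day 4 and 51.2% on day 8. Median-of-ratios scaling moved the median of all tested entries by 0.21 and gave -1.68, -1.21 and -1.05, all called (limma adjusted p-values of 0.00112, 0.00570 and 0.00897). With this scaling 79 of 150 called entries were higher in IMF-8d, against 52 of 160 on TPM. Each of the 3 members was called on both days in every fit that left out 1 of the libraries compared. With no filter on low entries, ssc-miR-221-3p alone was called on day 4 and 0 of the 3 on day 8 (limma adjusted p-values from 0.0743 to 0.149).

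**Figure D2:**
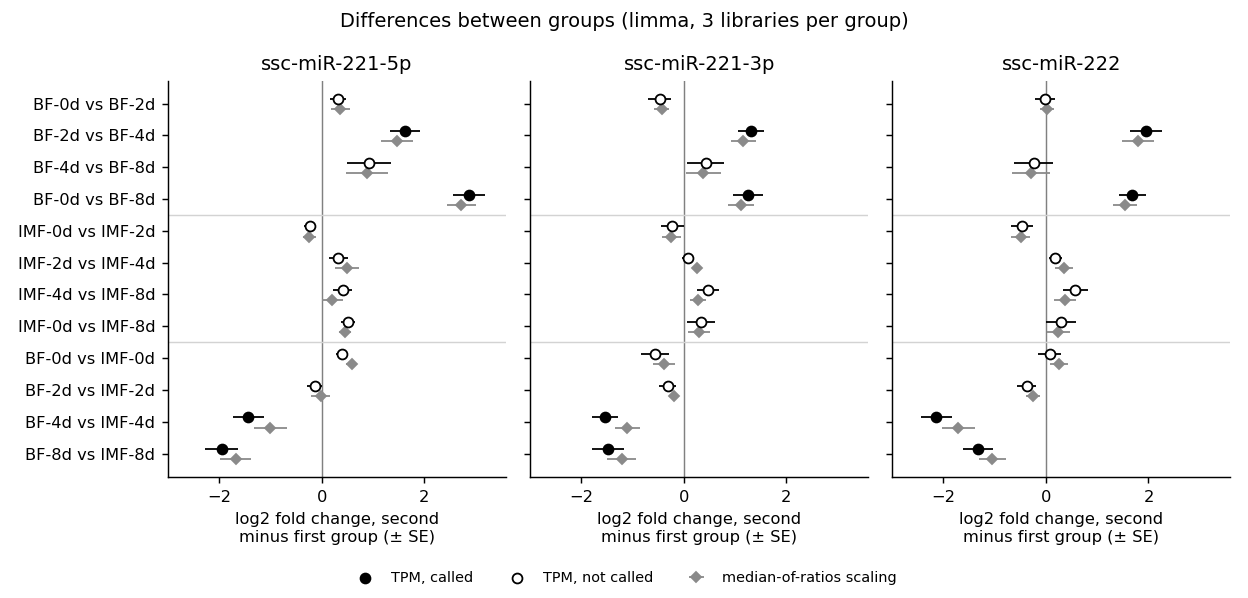
log2 fold changes (second minus first group, ± SE, 3 libraries per group) of the members in the 12 comparisons, from TPM (circles, filled where called) and with median-of-ratios scaling (diamonds). Calls are found at BF-2d vs BF-4d, BF-0d vs BF-8d and the BF against IMF comparisons of days 4 and 8, and on day 4 the diamonds lie nearer to 0 than the circles (-1.71 against -2.14 for ssc-miR-222).

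Whether the time courses themselves differed between the sources was asked with limma's F statistic for the interaction of source and day in 24 libraries, which 31.6% of all tested entries passed. All 3 members passed, with limma adjusted p-values of 2.69e-04 for ssc-miR-221-5p, 8.64e-04 for ssc-miR-222 and 0.0379 for ssc-miR-221-3p. The last did not pass in 14 of the 24 fits without 1 library, nor with median-of-ratios scaling (0.0574) or with no filter (0.0938). For the step from day 2 to day 4, 7.67% of entries passed, and ssc-miR-222 did, rising less in IMF by 1.76 ± 0.42 (SE) on the log2 scale (limma adjusted p = 0.00985). ssc-miR-221-5p and ssc-miR-221-3p, at differences of -1.29 and -1.22, missed the threshold (0.0585 and 0.0605). From day 0 to day 8, where 20.7% passed, the difference was -2.35 ± 0.42 for ssc-miR-221-5p (limma adjusted p = 2.35e-04), -1.39 ± 0.42 for ssc-miR-222 (0.0175) and -0.92 ± 0.41 for ssc-miR-221-3p (0.110).

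The 2 arms of miR-221 did not change by the same factor in subcutaneous cultures. In BF-0d the 5p arm made up 18.1%, 24.5% and 19.7% of the reads of both arms, and in BF-2d 26.6%, 28.7% and 38.5%. In BF-4d it made up 29.7%, 49.6% and 29.8%, and in BF-8d 40.9%, 50.5% and 41.5%. The shares of BF-8d all lay above those of BF-0d and BF-2d, and the share in BF-8d replicate 2 was the highest of all libraries. In IMF it was 29.98%, 43.1% and 28.8% in IMF-0d, 32.7%, 34.8% and 33.6% in IMF-2d, 34.5%, 47.4% and 31.5% in IMF-4d, and 31.8%, 38.6% and 39.2% in IMF-8d. These overlapped across days. In 6 of the 8 groups the library numbered 2 had the highest share, and in the remaining 2 groups the library numbered 3.

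**Figure D3:**
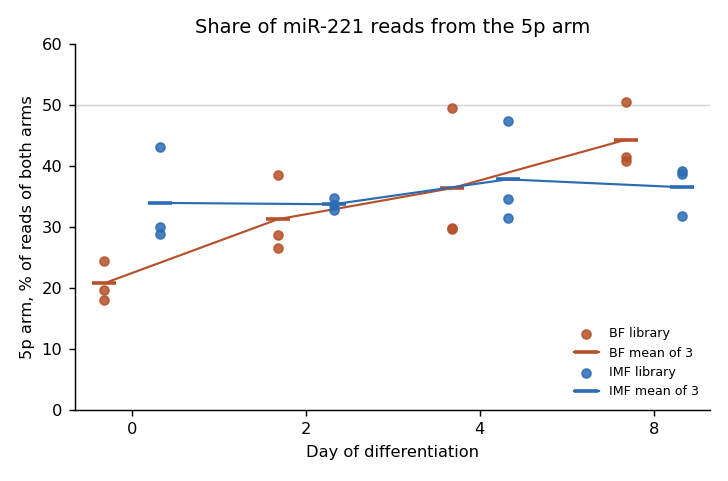
Share of the 5p arm in the reads of both arms of miR-221 (percent) against day, for the 12 BF and 12 IMF libraries, with bars joined by lines for the means of 3. The BF means go from 20.7% on day 0 to 44.3% on day 8, while the IMF means stay between 33.7% and 37.8%.

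The log2 ratio of the 5p to the 3p arm was compared with limma over the 59 hairpins that have both arms among the tested entries. Since both arms are counted in one library, the scaling of the libraries cancels in this ratio except through the 1 TPM added to each arm, which counts little for miR-221 and more for hairpins with a weak arm. From BF-0d to BF-8d it went from -1.94 to -0.33 for miR-221, a change of 1.61 ± 0.31 (SE, adjusted p = 2.37e-04), where 30.5% of the hairpins passed, 8 upwards and 10 downwards. This was the rise next to the largest, behind miR-30b at 3.05 ± 0.30 and ahead of miR-769 at 1.48 ± 0.36. The largest falls were those of miR-708 at -1.37 ± 0.35, miR-193a at -1.23 ± 0.31 and miR-199a at -1.20 ± 0.31. Those hairpins differ in depth. The weaker arm had a mean of 2.33 TPM for miR-30b, 7.03 TPM for miR-769, 1.38 TPM for miR-193a, 53.9 TPM for miR-708 and 3019 TPM for miR-199a, against 580 TPM for miR-221. The weaker arm of miR-199b had nearly the same mean as that of miR-199a (3018.59 and 3018.56 TPM). The ratio of miR-199a may therefore not belong to its hairpin alone. The change of miR-221 was between 1.43 and 1.77 when 1 library was left out, and passed each time.

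In the intramuscular cultures the arm ratio of miR-221 changed by 0.17 ± 0.28 from day 0 to day 8 (limma adjusted p = 0.668), where 5.08% of the hairpins passed. The difference between the sources in this change was -1.43 ± 0.46 (limma adjusted p = 0.0625), where 3.39% of the hairpins passed, and limma's F test over all days gave an adjusted p of 0.183, where 0% passed. On day 0 the ratio was higher in IMF by 0.96 ± 0.32 (limma adjusted p = 0.172), where 1.69% of the hairpins passed. In this comparison, 1 of 12, the deviations of every 2 libraries with the same number correlated above 0.1 (0.188 to 0.509). With the number as a block the same difference passed (limma adjusted p = 0.00241). That pairing was read from these same data and no label ties the numbers to piglets. The blocked fit is therefore no separate support for a difference. On the other days the IMF minus BF difference was 0.18 ± 0.24 on day 2, where 0% passed, 0.10 ± 0.36 on day 4, where 3.39% passed, and -0.47 ± 0.26 on day 8, where 13.6% passed, with limma adjusted p-values from 0.213 to 0.884. The sign on day 4 depended on single libraries: the value was -0.19 without IMF-4d replicate 2 and -0.10 without either BF-4d replicate 1 or BF-4d replicate 3.

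**Figure D4:**
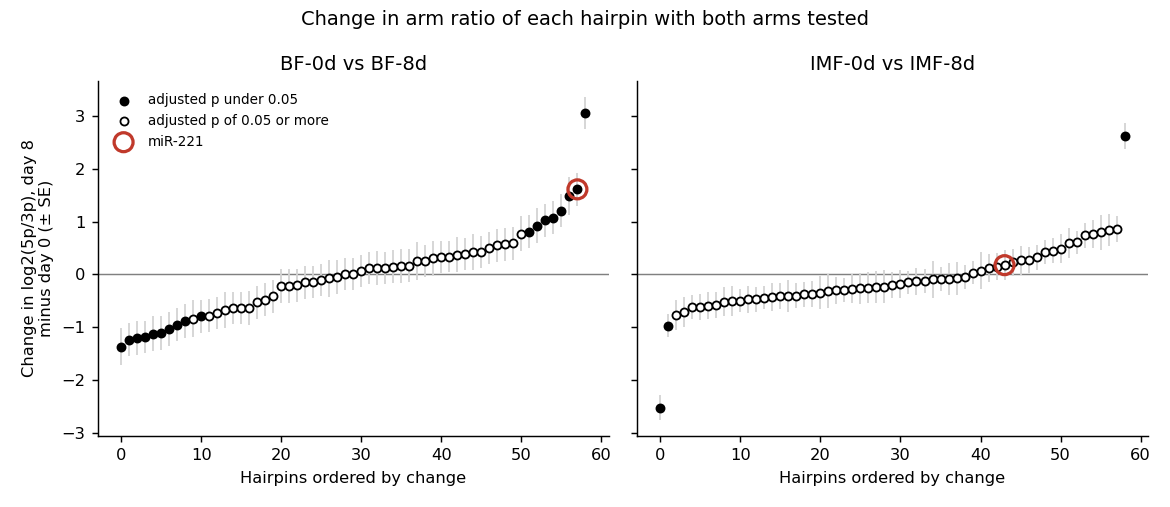
Change in the log2 ratio of 5p to 3p reads from day 0 to day 8 (± SE) of 59 hairpins, ordered within each source, filled where the limma adjusted p is under 0.05. miR-221 (ring) changed by 1.61 in BF and by 0.17 in IMF, with medians over all hairpins of 0.01 and -0.20.

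The hairpins of miR-221 and miR-222 were also compared with each other through the members that share a seed. ssc-miR-222 was at 0.476, 0.557 and 0.568 of the level of ssc-miR-221-3p in BF-0d, and at 0.794, 0.678 and 0.711 in BF-2d. In BF-4d the ratio was 0.799, 1.55 and 1.17, and in BF-8d 0.828, 0.613 and 0.717. Only in BF-4d replicates 2 and 3 did ssc-miR-222 exceed ssc-miR-221-3p. It was 0.871, 0.870 and 0.743 in IMF-0d, 0.716, 0.764 and 0.615 in IMF-2d, 0.649, 0.996 and 0.642 in IMF-4d, and 0.848, 0.776 and 0.768 in IMF-8d. On day 0 all 3 IMF libraries lay above all 3 BF libraries. The log2 ratio differed between the sources (IMF minus BF) by 0.63, -0.06, -0.60 and 0.16 on days 0, 2, 4 and 8. The mean over days, 0.03, joins differences of opposite sign, and an exact two-sided permutation test of it within days gave p = 0.822. The 6 comparisons of 3 against 3 libraries (day 8 with day 0 in each source, and the sources on each day) gave exact two-sided permutation p-values from 0.1, the smallest such a design allows, to 0.8, and adjusted p-values from 0.3 to 0.8.

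The levels of the members went together across libraries. Over the 24 libraries, Pearson's r of log2(TPM + 1) was 0.922 between ssc-miR-222 and ssc-miR-221-3p, 0.882 between ssc-miR-222 and ssc-miR-221-5p, and 0.835 between both arms of miR-221. Within the 12 BF libraries these values were 0.899, 0.887 and 0.869, and within the 12 IMF libraries 0.867, 0.708 and 0.485. The arms of one hairpin were less alike than the strands of separate hairpins that share a seed over all libraries and within each source, a difference that was not tested. The median r with the other tested known entries was 0.422 for ssc-miR-222, 0.467 for ssc-miR-221-3p and 0.343 for ssc-miR-221-5p. All these values share the total of each library and the same groups, and are descriptions.

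Of the 270 tested known entries, those most like ssc-miR-222 were ssc-miR-212 (r = 0.937), ssc-miR-221-3p and ssc-miR-138 (r = 0.901). Those most like ssc-miR-221-3p were ssc-miR-191 (r = 0.926), ssc-miR-222 and ssc-miR-34a (r = 0.890). Those most like ssc-miR-221-5p were ssc-miR-155-5p (r = 0.893), ssc-miR-34a (r = 0.882) and ssc-miR-222. ssc-miR-34a, a target of p53, had mean levels of 135, 142, 237 and 375 TPM in BF on days 0, 2, 4 and 8, and of 91.1, 105, 109.97 and 154 TPM in IMF. ssc-miR-155-5p, best known from immune cells and also studied as a brake on adipogenesis, had 498, 449, 868 and 1432 TPM in BF and 397, 342, 350 and 721 TPM in IMF. ssc-miR-212, which CREB activates, had 5.39, 8.00, 32.5 and 21.8 TPM in BF and 5.07, 3.74, 4.18 and 10.4 TPM in IMF. Like ssc-miR-222, it had its highest mean in BF-4d.

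Other miRNAs known to act on preadipocytes were counted from lists. Of 12 tested entries reported to raise preadipocyte differentiation (miR-143, miR-103 and miR-107, miR-378, the miR-30 family, miR-148a and miR-26), 5 rose and 0 fell from BF-0d to BF-8d, where 27.9% of all tested entries were called as higher, with a median log2 fold change of 0.30 against 0.15. Of 6 tested entries reported to lower it (miR-27, miR-130, miR-138, miR-155), 2 rose and 2 fell, with a median of 0.13, and 14.9% of all tested entries were called as lower in BF-8d. Those that rose were ssc-miR-138, from 1.25 to 15.2 TPM (log2 fold change 2.87 ± 0.25, limma adjusted p = 8.12e-08), and ssc-miR-155-5p (1.5 ± 0.21, limma adjusted p = 2.09e-05). Those that fell were ssc-miR-27b-3p (-0.94 ± 0.18, limma adjusted p = 5.12e-04) and ssc-miR-27a (-0.62 ± 0.24, limma adjusted p = 0.0459). From BF-2d to BF-4d, where all members rose, 1 of the 12 rose, ssc-miR-30d, and 1 of the 6, ssc-miR-138, where 5.81% of all tested entries were called as higher. From IMF-0d to IMF-8d, where no member was called, 19.8% of all tested entries were called as higher and 10.7% as lower. Of the 12, 6 rose and 0 fell (median 0.52 against 0.07), the largest rise being that of ssc-miR-30b-5p, from 27.3 to 191 TPM (2.78 ± 0.17, limma adjusted p = 7.13e-05). Of the 6, ssc-miR-155-5p rose (0.87 ± 0.24, limma adjusted p = 0.0289) and ssc-miR-130a fell (-0.81 ± 0.25, limma adjusted p = 0.0441), with a median of -0.09.

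On day 4, 6 of the 12 entries that raise differentiation were lower in IMF and 0 higher, with a median of -0.66 against -0.34 over all tested entries. Of all tested entries, 28.8% were called as lower and 7.44% as higher in IMF-4d, and 25.1% as lower and 12.1% as higher in IMF-8d. On day 8, 4 of the 12 were lower and 0 higher, with a median of -0.27 against -0.28. The same list was lower in IMF on earlier days too. On day 0, 6 of the 12 were lower and 0 higher (median -0.59 against -0.13), where 29.3% of all tested entries were called. On day 2, 4 were lower and 0 higher (median -0.45 against -0.14), where 12.3% were called. Of the 6 that lower differentiation, 3 were lower in IMF on day 0 (median -0.56) and 1 on day 2 (median -0.15), with 0 higher. On days 4 and 8, 2 of the 6 were lower, ssc-miR-138 and ssc-miR-155-5p, with medians over the 6 of 0.21 and -0.41. ssc-miR-138 was at -3.62 ± 0.57 on day 4 and at -3.44 ± 0.23 on day 8 (limma adjusted p-values of 4.96e-04 and 7.79e-08), with means of 0.0592 and 0.484 TPM in IMF, of which the first is under the floor of 3 reads.

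miR-221 and miR-222 share the X chromosome with other miRNA clusters. Of 35 tested entries placed on that chromosome besides the members, 12 rose and 1 fell from BF-0d to BF-8d, where 27.9% of all tested entries were called as higher, with a median of 0.17 against 0.15. On day 4, 14 were lower and 0 higher in IMF, where 28.8% of all tested entries were called as lower (median -0.58 against -0.34). On day 8, 11 were lower and 2 higher, where 25.1% were called as lower (median -0.20 against -0.28). Already on day 0, 12 were lower and 2 higher in IMF (median -0.49 against -0.13), where 29.3% of all tested entries were called. On day 2, 9 were lower and 0 higher (median -0.32 against -0.14), where 12.3% were called. From IMF-0d to IMF-8d, 11 rose and 0 fell, where 19.8% were called as higher (median 0.32 against 0.07). The largest rises in BF were those of ssc-miR-452, from 0.110 to 19.3 TPM (log2 fold change 4.11 ± 0.29, limma adjusted p = 6.09e-09), and of ssc-miR-224, from 0.102 to 13.9 TPM (3.68 ± 0.28, limma adjusted p = 1.19e-08), which lie together in an intron of GABRE in humans. Their levels in BF-0d are under the floor of 3 reads, so these changes depend on the pseudocount. Both entries also rose from IMF-0d to IMF-8d, ssc-miR-452 from 2.02 to 26.8 TPM (3.19 ± 0.16, limma adjusted p = 6.63e-05) and ssc-miR-224 from 3.39 to 15.6 TPM (1.90 ± 0.24, limma adjusted p = 0.00232), where no member was called.

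The miR-17-92 cluster and its paralogs, a family tied to proliferation as miR-221 and miR-222 are, had 10 tested entries. Those that the study's miRNA table places on the X chromosome, ssc-miR-19b and ssc-miR-92a among them, are counted in both lists. Whether their reads came from that chromosome was not tested. Of the 10, 4 rose and 0 fell from BF-0d to BF-8d, where 27.9% of all tested entries were called as higher (median 0.58 against 0.15). In IMF, 9 were lower on day 4, where 28.8% of all tested entries were called as lower (median -1.14 against -0.34), and 10 on day 8, where 25.1% were (median -0.88 against -0.28). Before that, 1 was lower on day 0 (median -0.24 against -0.13) and 5 on day 2 (median -0.66 against -0.14), with 0 higher. Of all tested entries 29.3% and 12.3% were called on these days. ssc-miR-106a differed by -1.87 ± 0.26 on day 4 (limma adjusted p = 2.80e-04) and ssc-miR-363 by -1.72 ± 0.24 on day 8 (limma adjusted p = 6.77e-05). From BF-2d to BF-4d 0 of the 10 were called, where 6.05% of all tested entries were, with a median of 0.40 against 0.13. From IMF-0d to IMF-8d also 0 were, where 30.5% of all tested entries were, with a median of -0.13 against 0.07.

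Markers of other cell types moved with the members in some comparisons and not in others. The summed level of both arms of miR-126, made by endothelial cells, which also express miR-221 and miR-222, was between 38.1 and 71.2 TPM in BF-0d and between 26.4 and 53.5 TPM in BF-2d. It was between 53.6 and 86.4 TPM in BF-4d and between 51.2 and 90.9 TPM in BF-8d. In IMF it was 18.2 to 40.4 TPM in IMF-0d, 24.5 to 27.4 TPM in IMF-2d, 18.7 to 30.9 TPM in IMF-4d and 24.6 to 34.8 TPM in IMF-8d. The median of both arms (IMF minus BF) was already -0.74 on day 0, against -0.13 over all tested entries. On that day 0 of both arms were called, where 29.3% of all tested entries were. On day 4 ssc-miR-126-3p was lower in IMF by 1.37 ± 0.27 on the log2 scale (limma adjusted p = 0.00207), and on day 8 both arms were. From BF-0d to BF-8d 1 of both rose, ssc-miR-126-5p, where 27.9% of all tested entries were called as higher, and from BF-2d to BF-4d 0 of both were called, where 6.05% of all tested entries were. ssc-miR-126-5p is a low entry, between 0.718 and 3.63 TPM in BF and between 0.208 and 2.01 TPM in IMF, so its changes depend on the pseudocount. Of the 3 tested muscle entries, ssc-miR-1 rose from BF-2d to BF-4d, from 484 to 1203 TPM (log2 fold change 1.29 ± 0.22, limma adjusted p = 0.00685), the step at which all members rose. ssc-miR-1 and ssc-miR-133a-3p rose and ssc-miR-499-5p fell from BF-0d to BF-8d, and 0 of the 3 were called between the sources on day 4 or day 8, where 36.3% and 37.2% of all tested entries were. From IMF-0d to IMF-8d ssc-miR-133a-3p rose (0.84 ± 0.20, limma adjusted p = 0.0202), and no other muscle entry and neither arm of miR-126 was called. Of all tested entries 30.5% were called there and 19.8% as higher. Of the blood entries only ssc-miR-486 was tested. It rose from 0.384 TPM in BF-0d to 2.43 TPM in BF-8d (log2 fold change 1.30 ± 0.24, limma adjusted p = 4.25e-04). On day 4 it was lower in IMF, as the members were, at 0.323 against 1.51 TPM (-0.94 ± 0.28, limma adjusted p = 0.0188). On day 8 IMF exceeded BF, at 6.27 TPM (1.10 ± 0.22, limma adjusted p = 0.00132), where the members were lower. From IMF-0d, at 0.834 TPM, to IMF-8d it rose by 2.01 ± 0.19 (limma adjusted p = 8.72e-04). Its means in BF-0d and IMF-4d are near the floor of 3 reads, which reached 0.271 TPM in BF-0d replicate 1 and 0.284 TPM in IMF-4d replicate 3. The lowest IMF library held 0.0644 TPM of it, so these changes depend on the pseudocount. The part of other cells in the results of the members was not tested.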

How the data were processed

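The deposited table holds 1587 entries, 363 known and 1224 new, in 24 libraries of single-end reads. The authors trimmed the reads, matched them to Sscrofa11.1 with Bowtie without mismatches, identified known miRNAs by BLAST against miRBase and new ones by miRDeep2, and tested them with DESeq2. The values are RPM, named TPM by the authors: each column sums to 1000000. All values lay within 0.000452 of whole reads, which were recovered for edgeR and DESeq2 (the median library had 10614384.5 reads). Floors cover counting error only, since no molecular identifiers are named.

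Here limma 3.58.1 (eBayes with trend, R 4.3.3) compared 3 libraries with 3 on log2(TPM + 1), over 430 entries (270 known, 160 new) whose mean reached 1 TPM. Calls needed an FDR (Benjamini-Hochberg) under 0.05 and a fold above 1.5. Fold changes of low entries are understated on this scale. The interaction fit used all libraries, and arm ratios were log2((5p + 1)/(3p + 1)) without a trend. Python 3.11.15 with SciPy 1.17.1, NumPy 2.4.6, pandas 2.3.3 and Matplotlib 3.10.9, edgeR 4.0.16 and DESeq2 1.42.0 were also used. The fits were tested on simulated data. Alternatives were edgeR, DESeq2, median-of-ratios scaling, a block on the replicate number, a single model for all libraries, a pseudocount of 0.1, a minimum mean of 10 TPM or none, and fits without 1 library.

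Replicate numbers come from the labels. Deviations of libraries with the same number correlated between -0.329 and 0.509, and every pair was above 0.1 in 1 of 12 comparisons, BF-0d vs IMF-0d (0.188 to 0.509). Within a group, libraries differed beyond counting error. Mature sequences came from the study's miRNA table, positions from an exact match to Sscrofa11.1, and gene names from its RefSeq annotation.

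The members and lists were chosen with earlier results of these data known. Named are the members, entries sharing their seed, the 3 known entries most correlated with each, the 3 hairpins with the largest rise and fall of the arm ratio, at most 4 called entries of each list per comparison, and ssc-miR-21-5p. The marker and list entries without a call that are named show levels only.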

Additional observations from a re-analysis of the deposited data

Results flagged for a closer look

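The difference between the sources in the change of ssc-miR-222 from day 2 to day 4 (IMF minus BF) was -1.76 on the log2 scale. In the change from day 0 to day 8 it was -2.35 for ssc-miR-221-5p and -1.39 for ssc-miR-222. All 3 are listed because the interaction contrast in limma passed an adjusted p of 0.05, with the tests given above. Groups of 3 libraries are too small for the test of single outlying libraries.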

How the results depend on the processing

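With no filter on low entries 1587 instead of 430 entries were tested, and the number of members called was 0 from BF-2d to BF-4d, 2 from BF-0d to BF-8d, 1 on day 4 and 0 on day 8, where it was 3 with the filter, at the same fold changes. Of all 1587 entries 0, 155, 50 and 143 were called in these comparisons, against 26, 184, 156 and 160 of 430 with the filter. The cause was not tested. In one fit of all 24 libraries 1 member was called from BF-4d to BF-8d, as were 81 of all 430 entries (13 with the 6 libraries alone). edgeR and DESeq2 called 1 member on day 0, and 113 and 110 of all 430 entries (126 by limma). With 1 library left out, the number of members called ranged from 0 to 3 from BF-2d to BF-4d, from 0 to 1 from BF-4d to BF-8d and from 0 to 1 from IMF-0d to IMF-8d, while all entries called ranged from 2 to 78, from 0 to 30 and from 90 to 142 of 430. The blocked fit takes libraries with the same replicate number as pairs, which was read from these data and not from the labels. It left the arm ratio difference of day 0 at 0.96 and moved its limma adjusted p from 0.172 to 0.00241. No call of the members changed with it.

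Directions turned only for values that were not called. ssc-miR-222 from BF-0d to BF-2d was at -0.02, and at 0.018 with median-of-ratios scaling, 0.0056 with DESeq2 and between -0.15 and 0.15 without 1 library. ssc-miR-221-5p on day 2 was at 0.019 with edgeR. Without 1 library, ssc-miR-222 ranged from -0.61 to 0.061 from BF-4d to BF-8d and from -0.12 to 0.27 on day 0. The arm ratio difference of day 4 ranged from -0.19 to 0.51, and the difference in the ratio of ssc-miR-222 to ssc-miR-221-3p from -0.031 to 0.088. The depth of the members, at least 2016 reads in each library, leaves a counting error that is small beside the spread of 3 libraries.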
